A study of Mus musculus with 8 samples.

Results

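Transcripts for the receptors of glutamate, GABA and glycine and for the serotonin-3 receptor were followed in the mouse neuroblastoma line N18TG2 and in 2/4, 1 clone derived from it that expresses choline acetyltransferase. The set was given by name as 43 genes: 4 AMPA, 5 kainate and 7 NMDA receptor subunits, 7 metabotropic glutamate receptors, 12 GABA-A and 2 GABA-B receptor subunits, 4 glycine receptor subunits and 2 serotonin-3 receptor subunits. Their 62 probes, of 55681 non-control probes on the array, were found through the RefSeq accession that each probe carries. In 22 of the 43 genes a probe was well above background, by the mark of the scanner software, on at least 2 of 8 arrays, and these were tested among 26247 features. The other 21 were not tested. A gene could pass that filter through the group in which it was high, so counts over the 22 describe the tested genes and not the whole set. The set was also chosen with earlier results of these data known.

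The 8 one-colour arrays fell into 4 groups of 2: the parental line untreated, the parental line with all-trans retinoic acid (RA), the clone untreated and the clone with RA. RA was given at 1 µM in a medium with 1% serum, whereas both lines were grown in 10% serum, and the clone was held under G418 at 200 µg/mL. How long RA was given, the medium of the untreated cells and the promoter that drives choline acetyltransferase are not given in the sources used here. Serum therefore cannot be told apart from RA, nor G418 or the history of a single clone from the expressed enzyme. Separate cultures are not stated for the 2 arrays of a group, so p-values measure only the spread between these samples, which may be technical. In a culture measured in bulk, fewer cells with a transcript and less transcript per cell cannot be told apart.

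Ionotropic receptors are channels that open when a transmitter binds. AMPA, kainate and NMDA receptors are cation channels made of 4 subunits, while GABA-A, glycine and serotonin-3 receptors are rings of 5 subunits from the Cys-loop family. Metabotropic glutamate receptors and GABA-B receptors act instead through G proteins, the latter as an obligate pair of Gabbr1 and Gabbr2. Serotonin-3 receptors form from Htr3a alone or from Htr3a with Htr3b, which does not make a working channel by itself, and N18 neuroblastoma cells and their hybrids are a classical preparation for recording them.

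Levels are given as log2 of the background-subtracted spot intensity minus the 75th percentile of the array, so 0 is the level that 3 in 4 spots stay below. Levels of different probes are not comparable, and differences are read within a probe. The 75th percentile ran from 265 to 1264 intensity units, and 47.7% to 62.8% of probes were well above background on 7 arrays against 71.7% on the first array of the clone with RA. Both arrays of that group also correlated least, at a Pearson r of 0.963 over genes where the other pairs gave 0.983 to 0.987. If the positions in the files are slide positions, slide row goes with each comparison of 2 groups and with the interaction. Row cancels only in the averages over both lines or both treatments. Parental arrays lay in slide columns 1 and 3 and clone arrays in columns 2 and 4. Slide column therefore goes with every difference between the lines, the average over both treatments included. The probe of Chat, which encodes choline acetyltransferase, passed the background mark on all 8 arrays but did not separate the untreated clone from the untreated parental line (log2 difference 0.38 ± 1.27, standard error, adjusted p = 0.897), so it does not check that label. The 9 sympathoadrenal markers of neuroblastoma were well above background on all 8 arrays, whereas 6 of 9 markers of hippocampal neurons, a tissue that the extraction text names, were above it on none.

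A small part of the receptor set was present throughout, and another part gave no signal on any array. Well above background on all 8 arrays were 11 genes: the AMPA subunit Gria2, the kainate subunit Grik5, the NMDA subunits Grin1 and Grin3b, the metabotropic receptors Grm2 and Grm5, the GABA-A subunits Gabrg3 and Gabrd, both GABA-B subunits and Htr3a. Another 11 were above background on 2 to 7 arrays, 5 on 1 array and 16 on none. Both arrays of a group had a signal for 12 receptor genes in the untreated parental line, 14 in the parental line with RA, 15 in the untreated clone and 17 in the clone with RA. On single arrays the count ran from 12 to 20, except on the first array of the clone with RA, where it was 23.

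**Figure D1:**
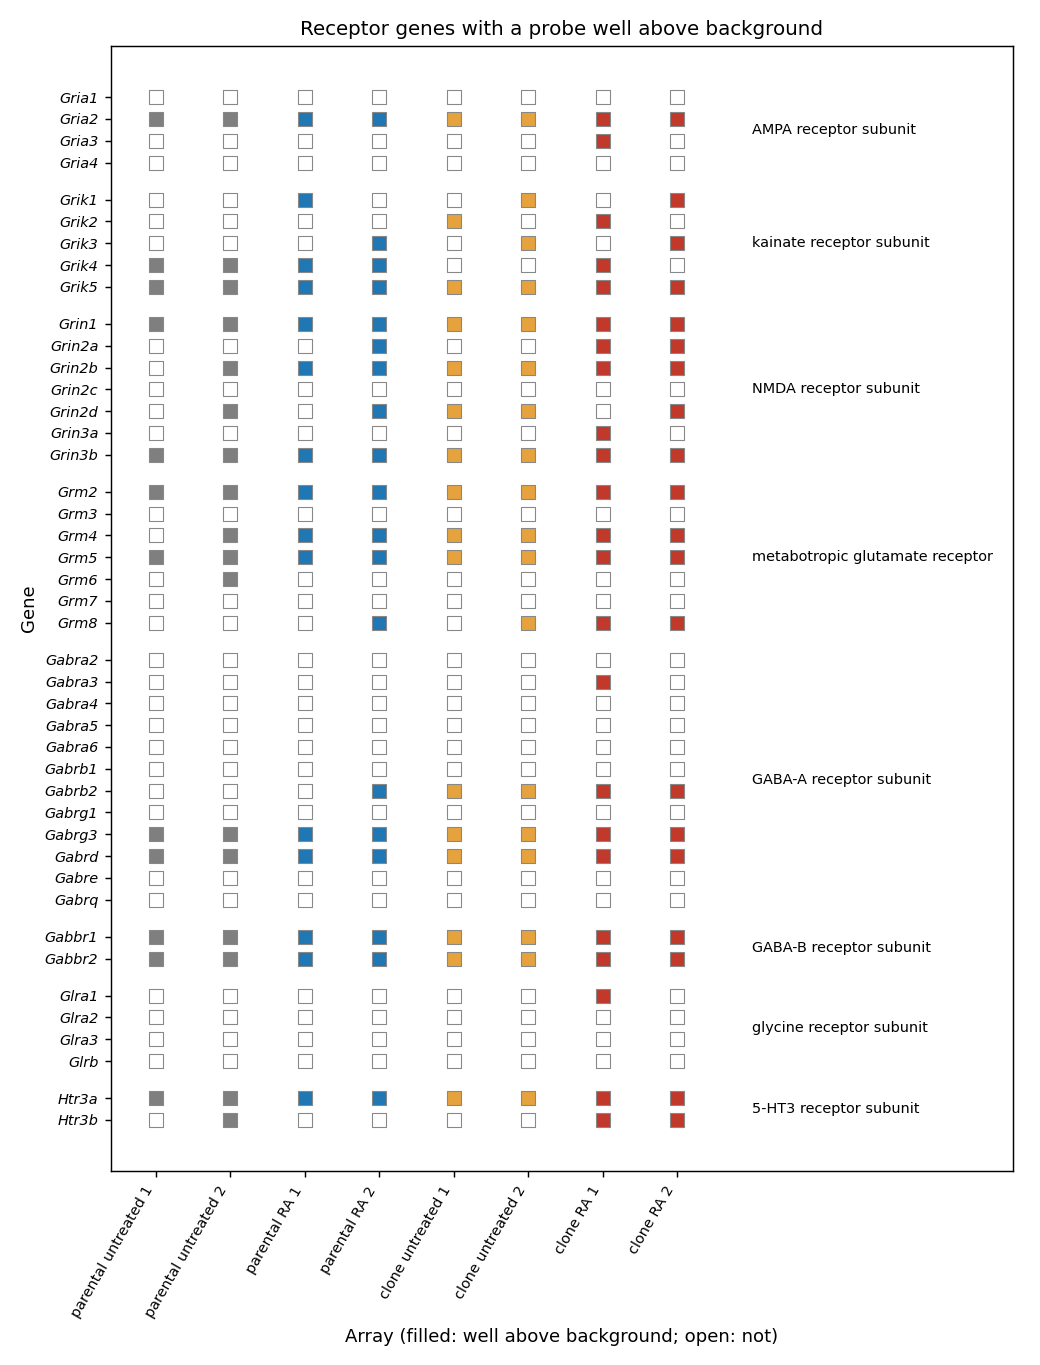
Detection of the 43 receptor genes (rows, grouped by family) on each of the 8 arrays (columns, coloured by group); a filled square marks a gene with at least 1 probe well above background. The 11 genes filled across the whole row include both GABA-B subunits, whereas 8 of 12 GABA-A subunits and 3 of 4 glycine receptor subunits are open across it.

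Detection was uneven among families. All 5 kainate subunits, both GABA-B and both serotonin-3 subunits were tested, as were 5 of 7 NMDA subunits and 4 of 7 metabotropic receptors. Only 1 of 4 AMPA, 3 of 12 GABA-A and 0 of 4 glycine receptor subunits passed. The 16 genes without a signal were the AMPA subunits Gria1 and Gria4, the NMDA subunit Grin2c, the metabotropic receptors Grm3 and Grm7, the GABA-A subunits Gabra2, Gabra4, Gabra5, Gabra6, Gabrb1, Gabrg1, Gabre and Gabrq, and the glycine receptor subunits Glra2, Glra3 and Glrb. For these the arrays give only an upper bound, which does not show that the transcript was absent. Of the 5 genes above background on 1 array, Gria3, Grin3a, Gabra3 and Glra1 were so on the first array of the clone with RA. Grin3a read -2.03 there and -7.30 on the second array of that group. Grm6 was above background only on the second array of the untreated parental line, at -4.99. The larger share of probes above background on that clone array moves with these 4 detections, and its part in them was not tested.

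Some neighbouring genes were alike in detection and others were not. Gabrg1, Gabra2, Gabra4 and Gabrb1 lie side by side in the RefSeq annotation, with at most 1 other protein-coding gene between neighbours, and all had a signal on 0 arrays. Of the neighbours Gabre, Gabra3 and Gabrq, Gabra3 had a signal on 1 array and the others on 0, and so did Glra1 and its near neighbour Gria1, with 1 and 0, both through the first array of the clone with RA. Other neighbouring pairs differed on more arrays. Gabrg3 was above background on all 8 arrays and the adjacent Gabra5 on 0, Gria2 on 8 and the adjacent Glrb on 0, and Gabrb2 on 5 and the adjacent Gabra6 on 0. Htr3a and Htr3b are also direct neighbours, with signals on 8 and on 3 arrays.

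More of these receptor genes were called between the lines with RA than without it. Under RA, 7 of 22 tested receptor genes were higher in the clone and 1 was lower, at an adjusted p under 0.05 (limma, Benjamini-Hochberg over all 26247 features). That is 36.4% of the tested receptor genes, against 23.2% of all features called (12.9% higher, 10.2% lower). Because the set was chosen with earlier results known, this share and the median below are descriptions and not a test of the set. The higher genes were Htr3a, Htr3b, Gria2, Grik3, Grm5, Gabrd and Gabbr1, and the lower one was Grin3b. The median log2 difference was 0.73 over the tested receptor genes and 0.11 over all features. Without RA none of the 22 was called, where 9.84% of all features were (6.14% higher, 3.7% lower). At an unadjusted p under 0.05 there were 3, Grik4, Htr3a and Htr3b, all with negative differences, and both Grik4 and Htr3b were called by limma with quantile normalization or with only the 2 untreated groups fitted, and Htr3b with slide side as a block. Averaged over both treatments, 5 of 22 were higher in the clone and 0 lower (Htr3a, Gria2, Grik3, Gabrd and Gabbr1), beside 27.7% of all features called, 16.1% higher and 11.6% lower.

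**Figure D2:**
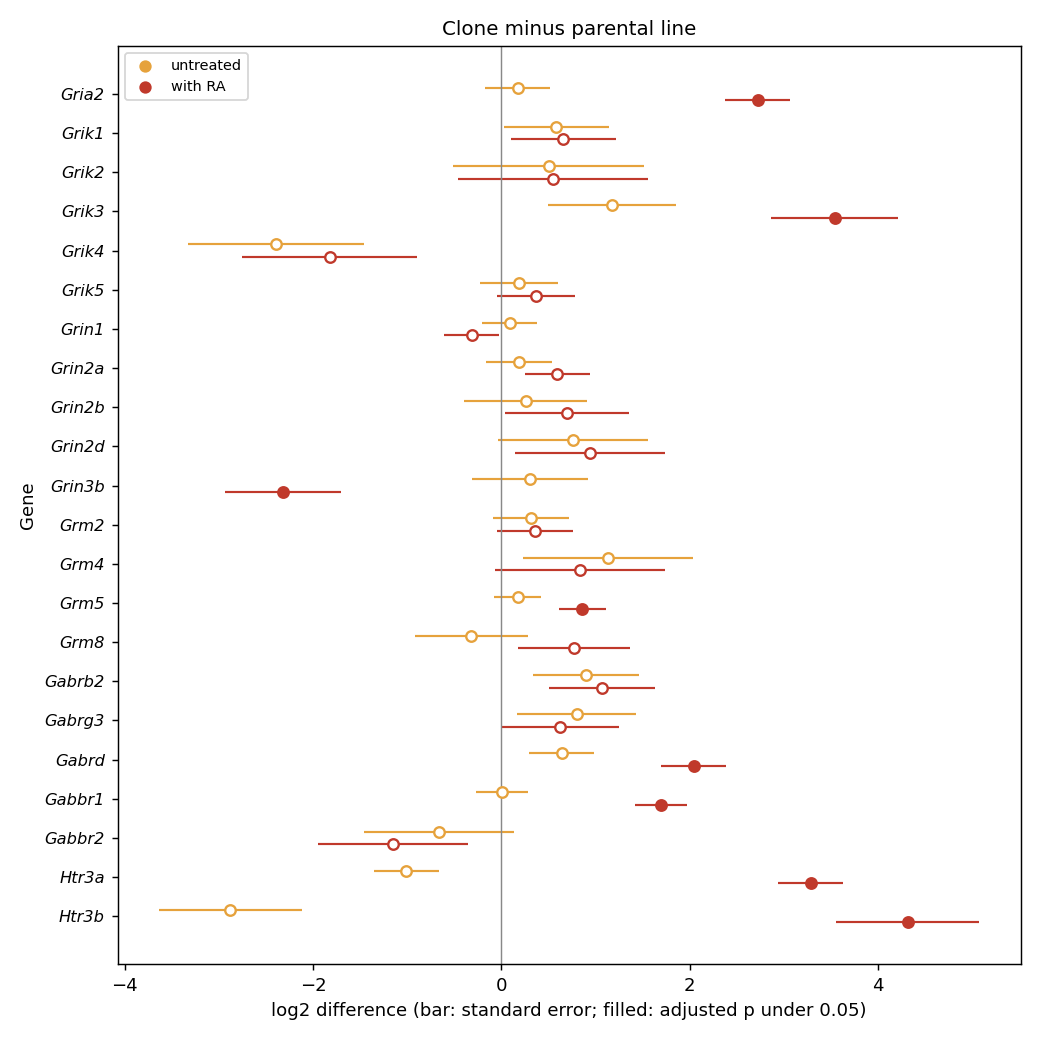
Clone minus parental line for the 22 tested receptor genes, as the log2 difference of group means with its standard error, untreated (yellow) and with RA (red); filled points have a limma adjusted p under 0.05 and n is 2 arrays per group. The 8 filled points all belong to the comparison with RA, 7 to the right of 0 and Grin3b to the left at -2.31.

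Fewer receptor genes were called between RA and untreated arrays of a line than between the lines under RA. Serum cannot be told apart from RA in these differences. In the parental line Htr3a fell and no other of the 22 was called (4.55%), where 1.13% of all features were (0.541% higher, 0.591% lower). In the clone Htr3b and Gabbr1 rose and none fell (9.09% of the 22), where 4.63% of all features were called (2.58% higher, 2.05% lower). The median log2 difference with RA over the tested receptor genes was 0.15 in the parental line and 0.81 in the clone, against 0.02 in both over all features. In the clone 20 of 22 differences were positive (90.9%, against 50.9% of all features), in the parental line 12 of 22 (54.5%, against 51.5%). The median level of probes above background on no array, averaged over the 2 arrays of a group, differed with RA by 0.25 in clone cells against -0.66 in parental cells. The part of this shift in the signs of the dim receptor genes was not tested. The difference between both responses was called for Htr3a alone (4.55% of the 22), where 0.206% of all features were called (0.122% higher, 0.0838% lower). Averaged over the lines, Htr3a was also the single gene called, lower with RA (4.55% of the 22), beside 5.83% of all features (3.13% higher, 2.7% lower). The comparisons share groups: the RA arrays of each line enter both the line difference under RA and the RA difference of that line.

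**Figure D3:**
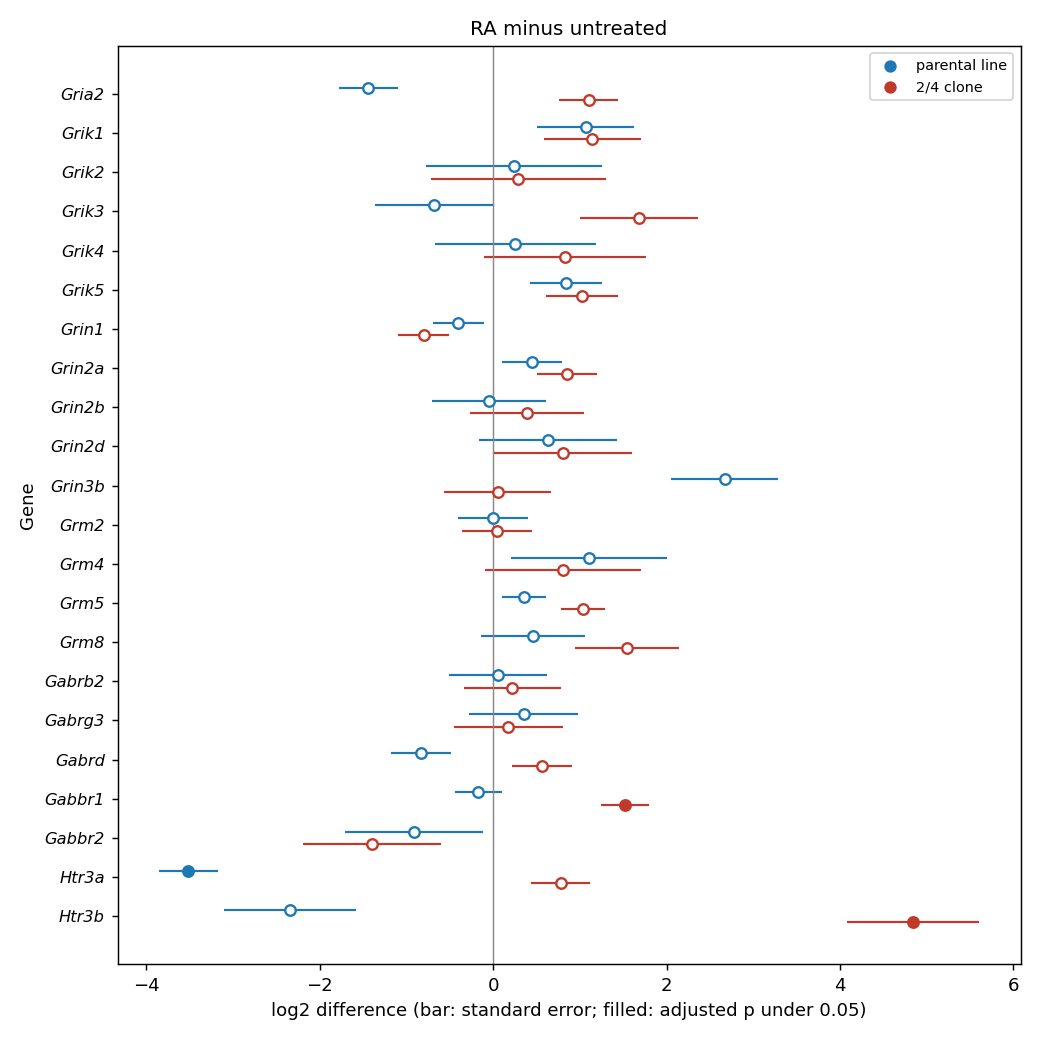
RA minus untreated for the 22 tested receptor genes, as the log2 difference of group means with its standard error, in the parental line (blue) and in the clone (red); filled points have a limma adjusted p under 0.05 and n is 2 arrays per group. Htr3a lies at -3.52 in the parental line and 0.78 in the clone, and Htr3b at -2.34 and 4.85.

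Htr3a, the subunit that every serotonin-3 receptor needs, was high in 3 groups and low in the parental line with RA. Its probe read 3.54 and 3.16 in the untreated parental line and -0.20 and -0.14 in the parental line with RA. In the clone it read 2.61 and 2.07 untreated and 2.81 and 3.42 with RA. The 2 parental arrays with RA stood apart from the other 6, which read between 2.07 and 3.54. With RA, Htr3a fell 11.4-fold in the parental line (log2 -3.52 ± 0.34, adjusted p = 0.0129). In the clone the difference was 0.78 ± 0.34 (95% interval -0.03 to 1.59, adjusted p = 0.248). The RA response of the clone exceeded that of the parental line by 4.29 ± 0.48 (adjusted p = 0.0383). Under RA the clone had 9.74-fold more Htr3a signal (3.28 ± 0.34, adjusted p = 0.00105), whereas untreated it had less by a difference of -1.01 ± 0.34 that was not called (95% interval -1.82 to -0.20, adjusted p = 0.126).

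The line difference of Htr3a under RA was called in all 10 processing alternatives and without each of the 8 arrays in turn (2.98 to 3.59). The fall in the parental line stayed between -3.71 and -3.32 without each of the 4 parental arrays in turn, but it was then not called, with adjusted p of 0.121 and 0.107 without untreated replicate 1 and 2 and 0.0975 and 0.0903 without RA replicate 1 and 2, and 0.0635 with no filter on dim probes. The difference between the responses lay at 4.02 to 4.57 and was not called without each of the 6 parental and untreated clone arrays in turn (adjusted p 0.125 to 0.257), nor with normexp background correction (4.16, 0.074), no filter (0.177) or slide side as a block (0.0571). The average line effect, 1.14 ± 0.24 (adjusted p = 0.0138), ended at 1.04 without parental untreated replicate 2 (0.0531) and 1.00 without clone untreated replicate 1 (0.0573). The average RA effect, -1.37 ± 0.24 (adjusted p = 0.0284), was between -1.51 and -1.23 without each parental and each untreated clone array, with adjusted p of 0.072 to 0.117, and had one of 0.0923 with no filter.

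Htr3b, the partner subunit that changes the conductance and kinetics of the channel, was read near background except in the clone with RA. The 250 bases before its start site are shown because Htr3b and Gabbr1 are the 2 receptor genes that rose with RA in the clone. The window covers chr9:48964991-48965240 on the minus strand of GRCm38.p6 and is taken from RefSeq, written 5′ to 3′ along the gene, with matches to 5 motifs in capitals.
Htr3b promoter: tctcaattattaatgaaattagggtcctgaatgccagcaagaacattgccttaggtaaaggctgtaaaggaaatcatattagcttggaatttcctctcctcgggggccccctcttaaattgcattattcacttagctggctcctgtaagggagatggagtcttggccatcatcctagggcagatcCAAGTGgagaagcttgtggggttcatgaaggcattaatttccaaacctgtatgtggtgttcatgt
The motifs searched on both strands were AGGTCA and GGGTCA (single hexamers recognised by nuclear receptors such as the RA receptors), CANNTG (the E-box), GGGCGG (the GC box) and TATAAA (the TATA box), and the matches do not overlap here. Htr3b had 1 match, to CANNTG, 65 bases before the start. Of 32851 promoter windows of this length, 66.2% hold CANNTG, 32.7% GGGCGG, 14.0% AGGTCA, 12.4% TATAAA and 11.6% GGGTCA. The GC content was 44.0%, against a median of 52.4%, with 1 CpG.

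The Htr3b probe read -5.39 and -4.85 in the untreated parental line, the latter array alone well above background. It read -6.29 and -8.63 in the parental line with RA and -7.91 and -8.08 in the untreated clone, not well above background in either group. In the clone with RA it read -2.54 and -3.76, both well above background and above all other arrays. For a group without a signal above background, a fold is given against the lowest level well above background on each array or the probe's own level there, whichever is higher. That level is not a strict bound. Glrb read -4.83 on the first array of the clone with RA and did not pass, where the lowest passing level was -5.37. Against that level Htr3b was 6.04-fold higher with RA in the clone and 6.59-fold higher in the clone than in the parental line under RA. The measured differences were 4.85 ± 0.76 (adjusted p = 0.0248) and 4.31 ± 0.76 (adjusted p = 0.00812). Clone minus parental line without RA, the measured difference was -2.88 ± 0.76 (adjusted p = 0.0623), and RA minus untreated in the parental line it was -2.34 ± 0.76 (adjusted p = 0.215). No fold is given for these, since 1 of the 2 untreated parental arrays and none of the arrays set against them was well above background. The difference between the RA responses, 7.19 ± 1.08, was not called (adjusted p = 0.0653), nor were both averages (adjusted p = 0.356 for the lines and 0.227 for RA).

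Values below background set the size of the Htr3b differences. Over the 11451 probes above background on no array, the median level ran from -8.37 to -6.71 by array, and clone minus parental line it differed by -0.60 untreated and 0.31 with RA. Their part in the Htr3b differences was not tested, but with every signal raised to a common floor, an alternative added after the data were seen, the line difference under RA was 1.46 (adjusted p = 0.0566) and the RA difference in the clone 1.46 (0.0993). With normexp background correction they were 1.13 (0.217) and 1.15 (0.368). The RA difference in the clone was also not called without clone RA replicate 1 (4.23, adjusted p = 0.0538), clone untreated replicate 1 or 2 (4.93 and 4.76, 0.145 and 0.183) or either untreated parental array (4.85, 0.0545), nor with no filter (0.0865) or only the groups compared (0.1).

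**Figure D4:**
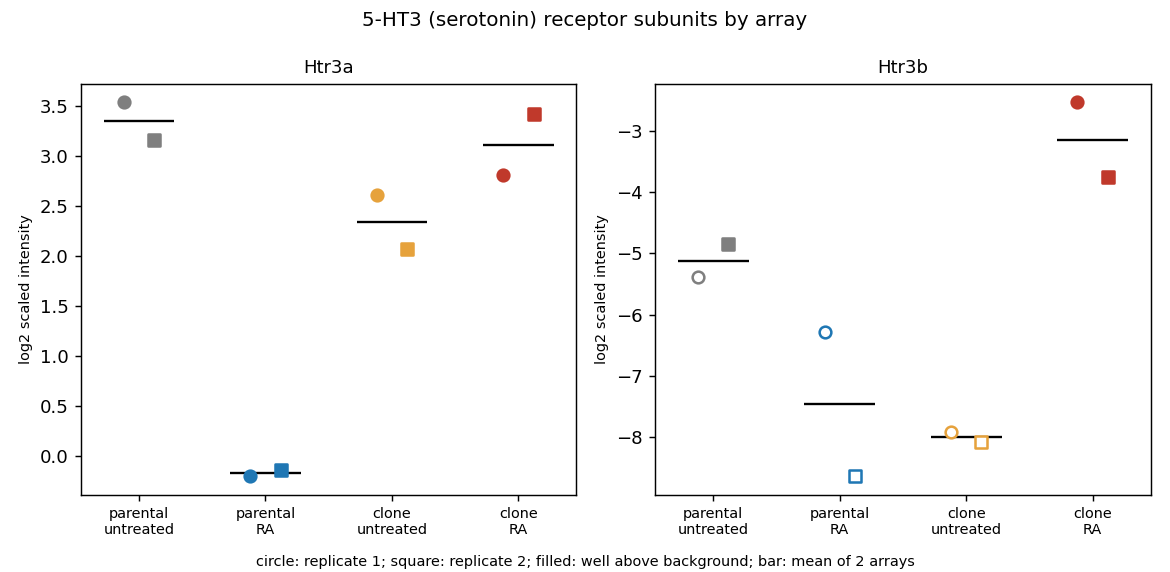
Level of the Htr3a and Htr3b probes on each array, as log2 scaled intensity, by group; circles are replicate 1, squares replicate 2, filled symbols are well above background and bars are means of 2 arrays. Htr3a is lowest on the 2 parental arrays with RA (-0.20 and -0.14), and Htr3b is highest on the 2 clone arrays with RA (-2.54 and -3.76).

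Across the 4 group means, the genes whose pattern was most like that of Htr3a included Cdx1, Asgr2, Sorbs3 and Etnk2 (Pearson r 0.998 to 0.999 over 4 groups). With 4 points such values are no rarity: 35 of 15168 other genes with a symbol had r above 0.99 with Htr3a, and 25 with Htr3b, led by Xpnpep2, Kcnk4, Adora2a, Itga11 and Alk. Htr3b stood at rank 2242 for Htr3a (r = 0.63), although the genes are neighbours.

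Among AMPA receptor genes, Gria2 alone was measured. It encodes the subunit whose edited form keeps the channel from passing calcium. Its probe, well above background on all arrays, read -3.61 and -3.28 in the untreated parental line and -4.80 and -4.97 with RA. In the clone it read -2.87 and -3.67 untreated and -2.12 and -2.22 with RA. The parental arrays with RA were the lowest and the clone arrays with RA the highest, and the untreated groups overlapped. Under RA the clone had 6.58-fold more Gria2 signal (log2 2.72 ± 0.34, adjusted p = 0.00212). The untreated difference was 0.17 ± 0.34 (95% interval -0.63 to 0.98, adjusted p = 0.814), and the average over both treatments 1.44 ± 0.24 (adjusted p = 0.00506).

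The RA differences of Gria2 had opposite signs and were not called, at -1.44 ± 0.34 for parental cells (adjusted p = 0.109) against 1.10 ± 0.34 for clone cells (adjusted p = 0.121). The difference between them was 2.55 ± 0.48 (adjusted p = 0.0954). With normexp background correction the line difference under RA was 1.31 (adjusted p = 0.0622) and the average line effect 0.54 (0.266). A second Gria2 probe, against another RefSeq transcript, was above background on no array. Gria1, Gria3 and Gria4 were not tested, and the highest reading among them was -4.51, for Gria3 on the first array of the clone with RA.

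The kainate subunits Grik1 to Grik3, which form channels by themselves, were dim, and Grik3 alone was called. The main Grik3 probe read -6.60 and -7.63 in the untreated parental line and -7.26 and -8.34 in the parental line with RA, all not well above background. It read -6.75 and -5.14 in the untreated clone and -4.70 and -3.83 in the clone with RA, with the second array of each clone group well above background. Under RA the clone stood 3.54 ± 0.68 above the parental line (adjusted p = 0.0111), and on average over both treatments 2.35 ± 0.48 (adjusted p = 0.0115). The size rests on signals below background, and the other Grik3 probe, above background only on the second parental array with RA, read -7.41 and -6.07 in the parental line with RA and -6.22 and -7.19 in the clone with RA. With a common floor the difference under RA was 0.39 (adjusted p = 0.34) and the average 0.20 (0.49). With normexp correction they were 0.75 (0.47) and 0.28 (0.794), and with quantile normalization 2.02 (0.208) and 1.61 (0.158). Without parental RA replicate 2 the difference under RA was 3.00 (0.0733).

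Grik4 and Grik5, the subunits that need a partner from Grik1 to Grik3, were not called in any comparison. Grik4 read -3.96 and -4.21 in the untreated parental line and -3.69 and -3.97 with RA, well above background on all 4 parental arrays. In the untreated clone it read -6.28 and -6.69, not well above background. In the clone with RA it read -3.99 on the first array, well above background, and -7.32 on the second, not so. Set at the lowest level well above background, as for Htr3b, the untreated clone was 3.16-fold lower than the untreated parental line. The measured difference of -2.40 ± 0.93 was not called (adjusted p = 0.176), and the average line effect was -2.11 ± 0.66 (adjusted p = 0.0533). Without clone RA replicate 1 that average was -2.94 (adjusted p = 0.000161), and without clone RA replicate 2 it was -1.28 (0.00726). The untreated difference stayed at -2.40 and was called without either of these arrays (0.00266), which enter it only through the shared spread. The size rests on signals below background: with normexp correction the untreated difference was -0.88 and the average -0.73, and with the common floor they were -0.53 and -0.50, none of them called.

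Grik5 was well above background on all arrays, at 2.14 and 1.84 in the untreated parental line, 2.35 and 3.32 in the parental line with RA, 2.00 and 2.35 in the untreated clone and 2.88 and 3.52 in the clone with RA. All 4 arrays with RA read at or above the untreated ones, but the average RA effect of 0.94 ± 0.29 (95% interval 0.24 to 1.63) was not called (adjusted p = 0.117). The Grik1 probe read -6.70 and -6.39 in the untreated parental line, -4.78 and -6.17 with RA, -6.44 and -5.49 in the untreated clone and -5.21 and -4.43 in the clone with RA, with 3 of these 8 arrays well above background. The average RA effect of 1.11 ± 0.39 was not called (adjusted p = 0.158) and was -0.11 with normexp correction. Grik2 was above background on 1 array in each clone group and differed between the lines by 0.50 untreated and 0.55 with RA, neither called.

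Of the NMDA receptor genes, Grin3b alone was called, lower in the clone under RA. It encodes a glycine-binding subunit that lowers calcium flow through the channel. Its level was -3.20 and -3.18 in the untreated parental line, 0.11 and -1.16 in the parental line with RA, -2.52 and -3.26 in the untreated clone and -2.07 and -3.60 in the clone with RA, all well above background. The 2 parental arrays with RA were the highest and did not overlap with the other 6. Under RA the Grin3b signal was 4.98-fold lower in clone cells (log2 -2.31 ± 0.62, adjusted p = 0.0364). The RA difference in the parental line was 2.67 ± 0.62 (95% interval 1.21 to 4.13) and was not called (adjusted p = 0.104). In the clone it was 0.05 ± 0.62 (95% interval -1.41 to 1.51), and the difference between the responses, -2.62 ± 0.87, was not called (adjusted p = 0.249).

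The Grin3b call under RA did not hold without parental RA replicate 1 (-1.68, adjusted p = 0.169) or clone RA replicate 2 (-1.55, 0.0833), nor without either untreated parental array (0.0641) or either untreated clone array (0.0598). That line difference was also not called with no filter on dim probes (0.0856), with only the groups compared (0.113) or with the common floor (0.0698). Without either clone RA array the RA difference in the parental line, still 2.67, was called (0.0349).

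Grin1, the obligatory NMDA subunit, was well above background throughout. The differences of its brightest probe lay between -0.80 with RA in the clone and 0.09 between the untreated lines, none called. A dimmer Grin1 probe, above background on 3 arrays, differed by -1.22 between the lines under RA (adjusted p = 0.135, tested as a probe). With RA in the parental line that probe differed by 0.38 (0.823). Grin2a, Grin2b and Grin2d, the glutamate-binding subunits, were dim. Grin2a read -6.84 and -6.31 in the untreated parental line and -6.16 and -6.10 with RA. In the clone it read -6.11 and -6.67 untreated and -5.28 and -5.79 with RA. With RA in the clone Grin2a differed by 0.85 ± 0.35 (adjusted p = 0.217). Its average RA effect was 0.65 ± 0.24 (adjusted p = 0.179). Grin2d read -6.61 and -5.01 in the untreated parental line, -6.21 and -4.15 with RA, -5.07 and -5.03 in the untreated clone and -4.79 and -3.69 in the clone with RA, and its average line effect was 0.85 ± 0.56 (adjusted p = 0.299). Grin2b read from -5.23 to -3.02, the highest on the first array of the clone with RA, and its 2 line differences were 0.26 and 0.70, neither called.

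Among metabotropic glutamate receptors, Grm5 was higher in the clone with RA. It encodes a receptor of group I, which couples to phospholipase C. It read -2.23 and -2.12 in the untreated parental line, -1.84 and -1.81 with RA, -1.94 and -2.06 in the untreated clone and -1.05 and -0.87 in the clone with RA. The clone arrays with RA lay above all others. Under RA the clone had 1.81-fold more signal (log2 0.86 ± 0.25, adjusted p = 0.0492), a value just inside the threshold. It lay between 0.77 and 0.95 without each array in turn and was not called in any of those 8 fits (adjusted p 0.0852 to 0.141), nor in 7 of 10 processing alternatives (0.06 to 0.183). With RA in the clone the difference was 1.04 ± 0.25 and was not called (adjusted p = 0.0687). The other 2 Grm5 probes, both against another transcript, were above background on no array.

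Grm2, Grm4 and Grm8, which couple to inhibition of adenylyl cyclase, were not called in any comparison. Grm2 was well above background on all arrays, read from -1.21 to -0.01 and differed between the lines by 0.32 untreated and 0.36 with RA (95% interval -0.59 to 1.31). Grm4 read -6.79 and -5.15 in the untreated parental line, -5.09 and -4.64 with RA, -5.05 and -4.63 in the untreated clone and -2.67 and -5.40 in the clone with RA. Its 2 clone arrays with RA were the highest and, after the first untreated parental array, the lowest of 8, and the average line effect was 0.98 ± 0.64 (adjusted p = 0.29). Grm8 read -6.01 and -5.58 in the untreated parental line, -5.81 and -4.87 with RA, -6.67 and -5.56 in the untreated clone and -3.88 and -5.25 in the clone with RA. Its average RA effect was 1.00 ± 0.42 (adjusted p = 0.22) and was -0.015 with normexp correction.

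**Figure D5:**
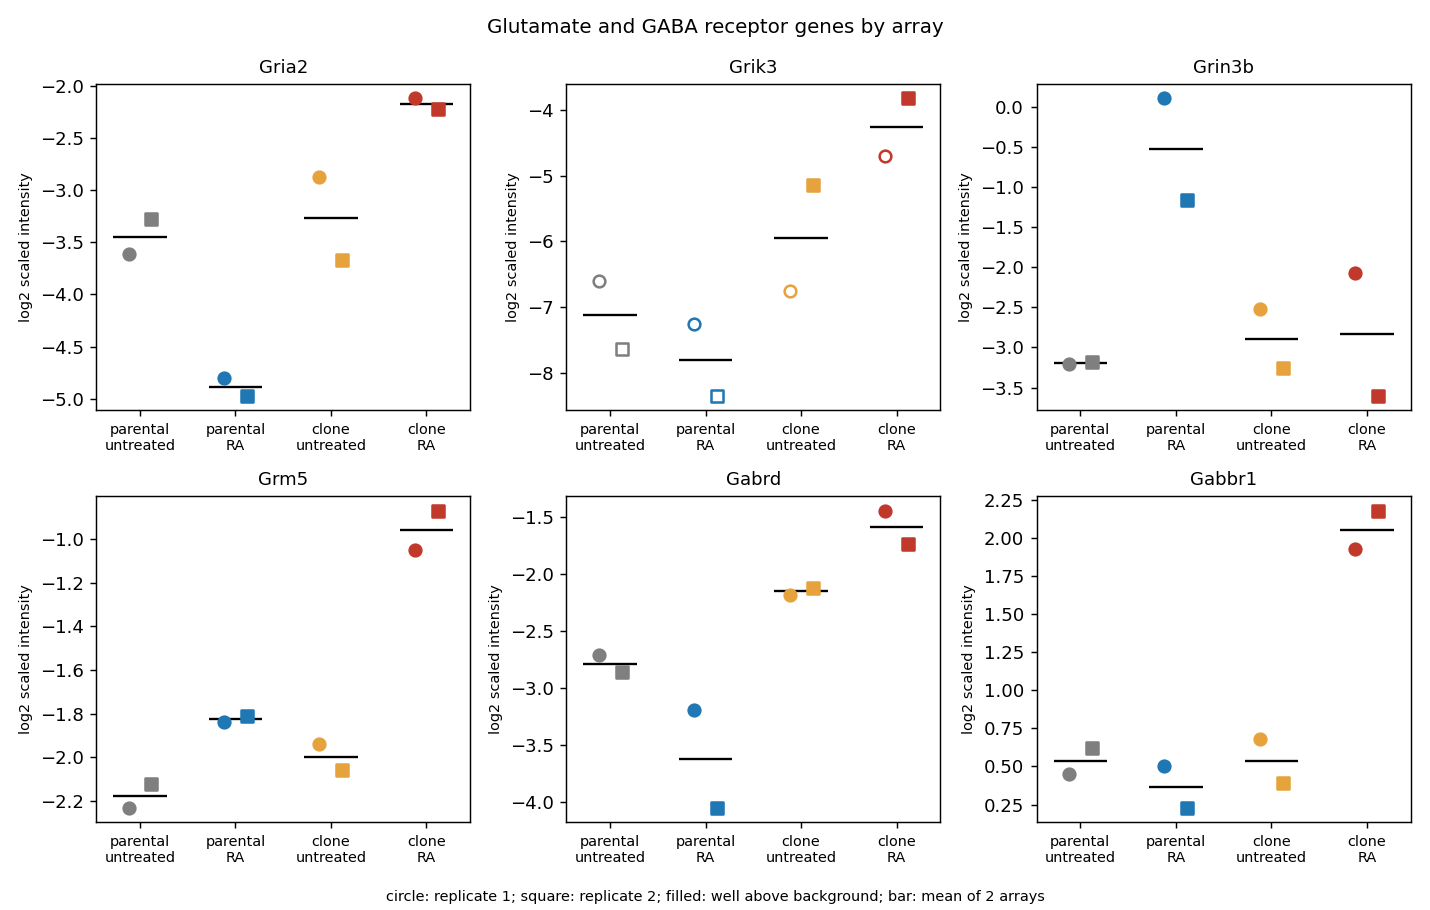
Level of the 6 glutamate and GABA receptor genes called under RA on each array, as log2 scaled intensity, by group (each panel has its own vertical axis); circles are replicate 1, squares replicate 2, filled symbols are well above background and bars are means of 2 arrays. The clone arrays with RA are the highest in each panel except that of Grin3b, where the 2 parental arrays with RA stand at 0.11 and -1.16.

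Of the GABA-A receptor genes, Gabrd was higher in the clone. It encodes the delta subunit of receptors outside synapses that carry tonic inhibition. Its level was -2.71 and -2.86 in the untreated parental line, -3.19 and -4.05 with RA, -2.18 and -2.12 in the untreated clone and -1.44 and -1.73 in the clone with RA, well above background on all 8 arrays. Every clone array lay above every parental array. The difference under RA was 4.11-fold (log2 2.04 ± 0.35, adjusted p = 0.00703) and the average over both treatments 1.34 ± 0.25 (adjusted p = 0.0075), whereas the untreated difference of 0.64 ± 0.35 was not called (adjusted p = 0.327). With normexp correction both calls ended, at 1.31 (0.0639) under RA and 0.77 (0.109) on average, and with only the groups compared the adjusted p under RA was 0.053.

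Gabrb2 and Gabrg3, a beta and a gamma subunit, were not called. Gabrb2 read -6.22 and -5.79 in the untreated parental line, -6.74 and -5.16 with RA, -4.94 and -5.26 in the untreated clone and -4.43 and -5.34 in the clone with RA. All 4 clone arrays and 1 of 4 parental arrays were well above background, and the average line effect was 0.99 ± 0.40 (95% interval 0.04 to 1.93, adjusted p = 0.11). Gabrg3 read -4.39 and -5.28 in the untreated parental line, -4.52 and -4.44 with RA, -3.46 and -4.61 in the untreated clone and -3.05 and -4.67 in the clone with RA, and its average line effect was 0.71 ± 0.45 (adjusted p = 0.274). No alpha subunit of the set, which GABA-A receptors of synapses need, was tested: Gabra3 was above background on 1 array and Gabra2, Gabra4, Gabra5 and Gabra6 on none.

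Gabbr1, the GABA-binding subunit of the GABA-B receptor, was higher in the clone with RA than in the other 3 groups. Its promoter window covers chr17:37045716-37045965 on the plus strand of GRCm38.p6, from RefSeq, with motif matches in capitals as for Htr3b.
Gabbr1 promoter: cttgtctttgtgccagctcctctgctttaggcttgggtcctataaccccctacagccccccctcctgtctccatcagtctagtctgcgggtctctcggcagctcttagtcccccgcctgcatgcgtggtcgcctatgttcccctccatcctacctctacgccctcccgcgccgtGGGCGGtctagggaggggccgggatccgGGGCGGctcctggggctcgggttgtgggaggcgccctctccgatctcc
The window held 2 matches to GGGCGG, 76 and 48 bases before the start, and none to the other motifs. Its GC content was 66.0%, with 16 CpG. The 2 promoters thus share no motif among those searched, and neither holds AGGTCA or GGGTCA in these letters.

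The brightest of 3 Gabbr1 probes read 0.45 and 0.62 in the untreated parental line, 0.50 and 0.23 with RA, 0.68 and 0.39 in the untreated clone and 1.93 and 2.18 in the clone with RA. The clone arrays with RA stood apart and the other 3 groups overlapped. Gabbr1 rose 2.86-fold with RA in the clone (log2 1.52 ± 0.28, adjusted p = 0.0337), and under RA it was 3.23-fold higher in the clone than in the parental line (1.69 ± 0.28, adjusted p = 0.00609). In the parental line the RA difference was -0.17 ± 0.28 (95% interval -0.82 to 0.48), and between the untreated lines it was 0.00 ± 0.28 (95% interval -0.65 to 0.66). The difference between the RA responses, 1.69 ± 0.39, was not called (adjusted p = 0.135).

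Both other Gabbr1 probes gave a like picture in the clone with RA, but not for RA in the parental line. They read -0.18 and -0.32, and -1.76 and -1.71, in the clone with RA, above all their other arrays. Tested as probes, the 3 differed between the lines under RA by 1.69 (adjusted p = 0.00859), 1.39 (0.0136) and 0.97 (0.0697), and with RA in the clone by 1.52 (0.0472), 1.60 (0.038) and 1.33 (0.0746). With RA in the parental line they differed, in the same order, by -0.17, 0.38 and 0.55, none called. The difference between the RA responses was 1.69, 1.23 and 0.78, none called. Their average RA effects were 0.67 (adjusted p = 0.119), 0.99 (0.0427) and 0.94 (0.0659), so that of the second probe was called. With only the groups compared, the line call had an adjusted p of 0.0501 and the RA call one of 0.111, and with no filter the latter had 0.107. The call with RA in the clone was lost without clone untreated replicate 1 (1.66, adjusted p = 0.154) or 2 (1.37, 0.238), clone RA replicate 1 (1.64, 0.075) or 2 (1.39, 0.0518) or either untreated parental array (0.0726). The average line effect, 0.85 ± 0.20 (adjusted p = 0.0184), was lost without parental untreated replicate 1 (0.81, 0.0687) or 2 (0.89, 0.0511) or clone untreated replicate 1 (0.78, 0.0766) and with no filter (0.0524).

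Gabbr2, the subunit that couples the receptor to its G protein, did not move with Gabbr1. It read -1.60 and -2.35 in the untreated parental line, -2.81 and -2.96 with RA, -2.68 and -2.60 in the untreated clone and -2.67 and -5.40 in the clone with RA, well above background throughout. The wide gap between the clone arrays with RA decided its values: the line difference under RA was -1.15 ± 0.80 (adjusted p = 0.339), 0.21 without clone RA replicate 2 and -2.51 (adjusted p = 0.00667) without replicate 1. For RA within the clone it was -1.40 ± 0.80 (adjusted p = 0.362), -0.03 leaving out replicate 2 and -2.76 (0.0312) leaving out replicate 1. A further Gabbr2 probe was above background on no array and another on 1.

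Glycine receptor genes were at background. Glra1, the alpha subunit of adult spinal receptors, read -3.83 on the first array of the clone with RA and -8.29 on the second, and it was above background on the first alone. Glra2, Glra3 and Glrb were above background on none, the highest reading being -4.83 for Glrb on that same clone array.

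Among auxiliary subunits and scaffolds of these receptors, 6 of 31 tested genes were higher in the clone under RA and 0 lower, a share of 19.4% beside the 23.2% of all features. Of the 31 differences 19 were positive, with a median of 0.33. They included Cnih2, which escorts AMPA receptors (1.76 ± 0.26, adjusted p = 0.0043), Nlgn2, an adhesion protein of inhibitory synapses (1.75 ± 0.30, adjusted p = 0.00731), and the scaffolds Dlg2 (2.03 ± 0.35, adjusted p = 0.00766) and Dlg3 (1.47 ± 0.35, adjusted p = 0.024). Untreated, Cnih2 was higher by 2.04 ± 0.26 (adjusted p = 0.00442), and Kctd12, an auxiliary subunit of GABA-B receptors, was lower by -1.43 ± 0.32 (adjusted p = 0.0358), a share of 6.45% beside 9.84% of all features. With RA in the clone 3 rose and 0 fell (9.68%, beside 4.63% of all features): Dlg2 (1.95 ± 0.35, adjusted p = 0.0334), Cacng5, an AMPA receptor auxiliary subunit (2.82 ± 0.53, adjusted p = 0.0363), and the adhesion gene Nlgn3 (2.30 ± 0.46, adjusted p = 0.041). With RA in the parental line none of the 31 was called. The averages gave 6 higher and 3 lower in the clone (29.0%, beside 27.7% of all features), with Cnih2 (1.90), Kctd12 (-1.24), Dlg2 (1.31) and Nlgn2 (1.05) at the smallest adjusted p, and 3 higher with RA, Nlgn3, Dlg2 and Cacng5 (9.68%, beside 5.83%).

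Genes that make, move and break down the transmitters went both ways. Of 17 tested, 3 were higher and 3 lower in the clone under RA, a share of 35.3% beside 23.2% of all features. Abat, which breaks down GABA, was higher by 4.55 ± 0.29 (adjusted p = 0.000194) and Maoa, which breaks down serotonin, by 1.59 ± 0.30 (adjusted p = 0.00985). Gls2, a glutaminase, was lower by -2.39 ± 0.27 (adjusted p = 0.00145), and Tph2, a tryptophan hydroxylase of serotonin synthesis, by -2.68 ± 0.51 (adjusted p = 0.0106). Untreated, Abat (2.49 ± 0.29) and Maoa (1.62 ± 0.30) were higher, and Ddc, the decarboxylase of serotonin and dopamine synthesis (-2.47 ± 0.28), and Tph2 (-2.33 ± 0.51) were lower, with adjusted p of 0.00288, 0.0168, 0.00252 and 0.032 (23.5%, beside 9.84% of all features). With RA in the clone 3 fell (17.6%, beside 4.63%), Gls2 (-2.02 ± 0.27, adjusted p = 0.0202), the glycine transporter gene Slc6a9 (-1.60 ± 0.29, adjusted p = 0.0326) and Tph1 (-2.40 ± 0.43, adjusted p = 0.0333), and in the parental line none of the 17 was called. The averages gave 4 higher and 3 lower in the clone (41.2%, beside 27.7%), led by Abat (3.52), Maoa (1.61), Gls2 (-1.45) and Ddc (-1.39), and 5 lower with RA (29.4%, beside 5.83%), led by Slc1a6, a glutamate transporter (-1.53), Tph1 (-1.89), Gls2 (-1.08) and Aldh5a1 of GABA breakdown (-1.14).

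Markers of the neuroblastoma itself also differed in the comparison that held most receptor calls. Under RA, 4 of the 9 sympathoadrenal markers were higher in the clone, among them Chga (3.18), Isl1 (1.63) and Phox2a (1.11), and 2 were lower, Dbh (-3.91) and Gata3 (-2.71), together 66.7% of the list beside 23.2% of all features. The log2 of their summed level ran from 6.12 to 6.38 in the parental line with RA and from 7.20 to 7.50 in the clone with RA. Untreated, the order was the reverse, at 6.75 to 7.22 in the parental line and 6.19 to 6.27 in the clone. For markers of hippocampal neurons the ranges with RA were 2.21 to 2.55 in the parental line and 2.24 to 2.49 in the clone. Untreated they were 2.50 to 2.60 and 3.72 to 3.75. Of these markers Prox1, Neurod2, Neurod6, Bhlhe22, Calb1 and Fezf2 were above background on no array. Of other cell types, 2 of 4 astrocyte, 3 of 4 oligodendrocyte, 1 of 4 microglial, 1 of 3 blood vessel and 0 of 4 Schwann cell markers were above background on all 8 arrays. Called under RA among these other lists were Camk2a (1.10), Tmem119 (4.08) and Mbp (-3.69). Their part in the receptor differences was not tested.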

How the data were processed

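Spots were read from one-colour scanner tables of Agilent design 028005. Per the file headers, the deposited intensity values were background-subtracted by Feature Extraction 10.7.3.1 without scaling between arrays. The deposited series table holds log2 values that the authors shifted by 1 constant per array, checked against the scanner tables (departure at most 1.95e-06).

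Of 62976 spots per array, 3671 control spots and those marked as outliers were left out, and spots of a probe were averaged. Log2 intensity minus the 75th percentile of the array was used. Probes that passed the scanner's background mark on 2 or more of 8 arrays were kept (36619), and the brightest probe stood for each gene (26247 features, 15169 with a symbol through RefSeq accessions of GRCm38.p6). Group means were estimated over the 8 arrays together (limma 3.58.1, R 4.3.3), leaving 4 residual and 3.00 prior degrees of freedom, and Benjamini-Hochberg adjustment over all features. One probe above background sufficed to call a gene detected. The number of arrays limits the precision. The fit was also run on simulated data with independent noise around each gene's mean. These held neither a background floor nor slide position, so the run does not check the calls of dim genes.

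Full values are given for each receptor gene called in any of 7 comparisons and for the 10 others with the largest average effects. From each of 2 related lists up to 4 called genes per comparison are named, by adjusted p. Some results for related genes are not reported here. Members and lists were chosen with earlier results of these data known. Alternatives were normexp correction (offset 50, run on median spot signals), quantile normalization, the series table, no filter or a stricter filter on dim probes, the mean of probes, a variance trend with robust estimation, fits restricted to the groups of a comparison, a block for slide side, a common floor, and leaving out each array.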

Additional observations from a re-analysis of the deposited data

Results flagged for a closer look

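The RA response of Htr3a differed between the lines, by 4.29 on the log2 scale in the test of that difference (limma interaction, adjusted p = 0.0383, n = 2 arrays per group): both parental arrays with RA read lower than both untreated ones, whereas both clone arrays with RA read higher. The rise in the clone was not called by itself (0.78 ± 0.34, adjusted p = 0.248). The difference between the responses was not called with normexp correction, with no filter on dim probes or with slide side as a block. Its dependence on single arrays is given above. Slide row goes with the test of that difference and cannot be told apart from it.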

How the results depend on the processing

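Counts of called receptor genes moved by over 1.5 times under some alternatives, and the cause was not tested. The share of all features called is given above for the main fit only. A general loss or gain of calls under an alternative therefore cannot be told apart from one among receptor genes. Untreated, the line count was 0, but 2 with quantile normalization or only the groups compared and 1 with the side block (0 to 2 without single arrays). Under RA it was 8, but 3 with normexp, 4 with only the groups compared and 5 with the common floor (6 to 9). RA in the parental line gave 1, but 0 with no filter, 3 under the strict filter (every array above background) and 2 with a trended variance (0 to 2). In the clone it gave 2, but 1 with normexp and 0 with no filter or only the groups compared (0 to 3). The interaction gave 1, but 0 with normexp, no filter or the side block, and 2 with the strict filter, a trended variance or the common floor (0 to 2). The average line effect gave 5, but 2 with normexp (3 to 8). The average RA effect gave 1, but 0 with no filter, 2 with the strict filter, the mean of probes or a trended variance and 3 with the common floor (0 to 4). Genes detected in the clone with RA were 17 on both arrays and 26 on at least 1 (20 and 23 without either array). Recomputed values numbered 892, over 18 called results and 34 uncalled ones of at least 1 in size, and the sign turned for 8, all uncalled: with normexp for Grik3 (-0.20) and Grm4 (-0.22) between the untreated lines, Grik1 (-0.44) and Grm4 (-0.21) with RA in the parental line, and Grik1 (-0.11) and Grm8 (-0.015) in the average RA effect, with quantile normalization for Gabrb2 between the lines under RA (-0.16), and without clone RA replicate 2 for Gabbr2 there (0.21, against -2.51 without clone RA replicate 1). Of 313 recomputed values of called genes 230 passed the threshold again. Signals near background limit dim genes such as Htr3b, Grik3, Grik4, Grik1, Grm4 and Grm8, whose sizes depend on the correction. The labels give arrays of different groups no shared replicate numbers, so no pairing was taken from them. The slide, not the labels, puts 1 array of each group on each side, and the side block above uses that position. That block does not remove the slide column within a side, which goes with line.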
